A study of Mus musculus with 2 samples.

Results

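The miR-17~92 cluster is a run of 6 microRNA genes on chromosome 14 of the mouse, carried in order as Mir17, Mir18, Mir19a, Mir20a, Mir19b-1 and Mir92-1. The members were chosen by position, as every microRNA gene of the GENCODE M21 annotation on the plus strand between 115043671 and 115044506 (mm10). They are 6 of the 2202 microRNA genes counted. MicroRNA-seq libraries were made from hippocampal tissue, labelled as a layer of the hippocampus, in a single group with biological replicates 2 and 1. The animals were 10 days old, male and of strain B6CASTF1/J, a cross between C57BL/6J and CAST/EiJ. Each replicate is labelled with 3 males, the animal numbers differ, and the donor identifier is the same for both, so the spread between them may be technical in part. There was no treated, mutant or control group, so the data give the level of each member and the difference between the libraries, and no contrast between conditions. Counts on microRNA genes summed to 3495401 in replicate 2 and 4815761 in replicate 1. Levels are in CPM, counts per 1000000 such counts, and 0 counts left room for a level of 0.858 CPM in replicate 2 and 0.623 CPM in replicate 1. These limits were set at 3 counts, and they and all intervals here cover counting error only. In tissue, fewer cells of a type and less RNA per cell cannot be told apart. The cluster is known from proliferating progenitors, but only microRNA genes were counted, so this association was not checked here against markers of dividing cells.

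The 6 hairpins are cut from 1 primary transcript, and 1 arm of each hairpin, the guide arm, is usually the one loaded into Argonaute. The seed, bases 2 to 8 of that arm, pairs with target messenger RNAs, so microRNAs with a common seed have overlapping targets. Transcription of the cluster is driven by Myc and E2F factors, and its products favour cell division and survival. In the developing cortex the cluster supports expansion of neural progenitors, and in the adult hippocampus it supports neurogenesis. Among known targets are the cell cycle inhibitor Cdkn1a for miR-17 and miR-20a, and Eomes, a transcription factor of intermediate progenitors, for miR-92a.

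The guide arms are shown because they place the 6 members in 4 seed groups and decide which reads can be assigned to a single gene. They are the mature sequences of RefSeq (GRCm38.p6), all on the plus strand of chromosome 14, with the seed in capitals.
miR-17-5p of Mir17: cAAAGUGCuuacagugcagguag
miR-20a-5p of Mir20a: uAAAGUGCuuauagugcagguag
miR-18a-5p of Mir18: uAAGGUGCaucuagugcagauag
miR-19a-3p of Mir19a: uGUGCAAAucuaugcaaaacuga
miR-19b-3p of Mir19b-1: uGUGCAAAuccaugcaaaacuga
miR-92a-3p of Mir92-1: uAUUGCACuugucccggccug
Counted from 1 at the 5′ end, miR-17-5p and miR-20a-5p differed by C1U and C12U, with the base of miR-17-5p given first. By the same count miR-19a-3p and miR-19b-3p differed by U11C alone, with the base of miR-19a-3p first. Mir18 had a seed of its own within the cluster.

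Of the 6 guide arms, 4 occurred in 1 microRNA gene of the annotation and 2 occurred in a second gene as well. The guide arm of Mir92-1 is also that of Mir92-2, and the guide arm of Mir19b-1 is also that of Mir19b-2, both in the paralogous cluster on the X chromosome. The hairpins of these pairs are shown in full, with the longest run of bases common to both copies in capitals.
Mir92-1, chr14:115044427-115044506, plus strand: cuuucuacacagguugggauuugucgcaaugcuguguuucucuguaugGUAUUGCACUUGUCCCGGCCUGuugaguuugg
Mir92-2, chrX:52741838-52741928, minus strand: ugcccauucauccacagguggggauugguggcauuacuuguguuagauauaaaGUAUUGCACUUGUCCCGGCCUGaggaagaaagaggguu
Mir19b-1, chr14:115044305-115044391, plus strand: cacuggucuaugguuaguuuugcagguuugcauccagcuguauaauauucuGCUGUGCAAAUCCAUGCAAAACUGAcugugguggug
Mir19b-2, chrX:52741983-52742066, minus strand: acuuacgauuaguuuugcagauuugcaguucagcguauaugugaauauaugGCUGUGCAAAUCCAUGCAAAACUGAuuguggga
The common run was 22 bases for the miR-92a pair and 25 bases for the miR-19b pair, and in each pair it ended with the last base of the annotated arm. The next base was U in Mir92-1 and A in Mir92-2, and C in Mir19b-1 and U in Mir19b-2. Reads confined to a common run fit 2 places and were left out of the gene counts, so Mir92-1 and Mir19b-1 may be undercounted. For Mir17, Mir18, Mir19a and Mir20a, the longest run in common with any other counted gene was 13, 17, 13 and 17 bases.

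All 6 hairpins lie in exon 2 of Mir17hg, the noncoding host gene at 115042879-115046727 on chromosome 14 (mm10, as for all positions). Mir17 is at 115043671-115043754, Mir18 at 115043851-115043946 and Mir19a at 115044000-115044081. Mir20a is at 115044157-115044263, with Mir19b-1 and Mir92-1 at the positions given above. The hairpins span 836 bases in all, and from the first to the last the gaps between neighbours were 96, 53, 75, 41 and 35 bases. Hairpin length was 80 to 107 bases, against a median of 89 over the 2202 genes. GC content was 43.7% to 47.5%, against a median of 50.8% over those genes.

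Together the 6 members took 0.593% of counts on genes in replicate 2 (exact Clopper-Pearson 95% interval 0.585% to 0.601%) and 0.715% in replicate 1 (0.708% to 0.723%). The mean was 0.654% ± 0.0866 (SD, n = 2). Members of the cluster differed far more from each other than between the libraries. Mir17, Mir92-1, Mir20a and Mir18 were measured at 224 to 4290 CPM, and the pair of miR-19 genes was at or near 0.

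Mir17, the first hairpin, had 12207 counts or 3492 CPM in replicate 2 and 20662 counts or 4290 CPM in replicate 1, a mean of 3891 ± 564 CPM (SD, n = 2). It was the member with the most assigned counts in both libraries and stood at rank 48 of the 2202 genes by mean CPM. Mir92-1, the last hairpin, had 4840 counts or 1385 CPM in replicate 2 and 7941 counts or 1649 CPM in replicate 1, a mean of 1517 ± 187 CPM (SD, n = 2). It was second in both libraries, at rank 93 of all genes, although reads that fit Mir92-2 equally well are not in these counts.

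Mir20a, which has the seed of Mir17, had 2886 counts or 826 CPM in replicate 2 and 4704 counts or 977 CPM in replicate 1, a mean of 901 ± 107 CPM (SD, n = 2). Mir18 had 784 counts or 224 CPM in replicate 2 and 1142 counts or 237 CPM in replicate 1, a mean of 231 ± 9.08 CPM (SD, n = 2). For each of these 4 genes replicate 2 lay below replicate 1. By assigned counts, the order Mir17, Mir92-1, Mir20a, Mir18 was the same in both libraries, and the ranges of neighbours in that order did not overlap.

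Mir19a had 0 counts in replicate 2 and 0 counts in replicate 1. The antisense and unstranded columns of Mir19a were also 0 in both. The assigned counts of Mir17 were therefore at least 4069 times those of Mir19a in replicate 2 and at least 6887 times in replicate 1, with the floor of 3 counts taken per library. This is a bound on counts as the authors assigned them, not on RNA in the tissue. Mir19b-1 had 7 counts or 2.00 CPM in replicate 2 and 1 count or 0.208 CPM in replicate 1. The intervals, 0.805 to 4.13 CPM in replicate 2 and 0.00526 to 1.16 CPM in replicate 1, overlapped each other. In replicate 1, Mir19b-1 lay under the limit set for a count of 0. In replicate 2 its interval reached below the limit of 0.858 CPM. The order of the miR-19 genes is therefore not resolved in either library. A total of 1405 of the 2202 genes had 0 counts in both libraries. The guide arm of Mir19a was found in no other microRNA gene, and the cause of its level of 0 was not tested.

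**Figure D1:**
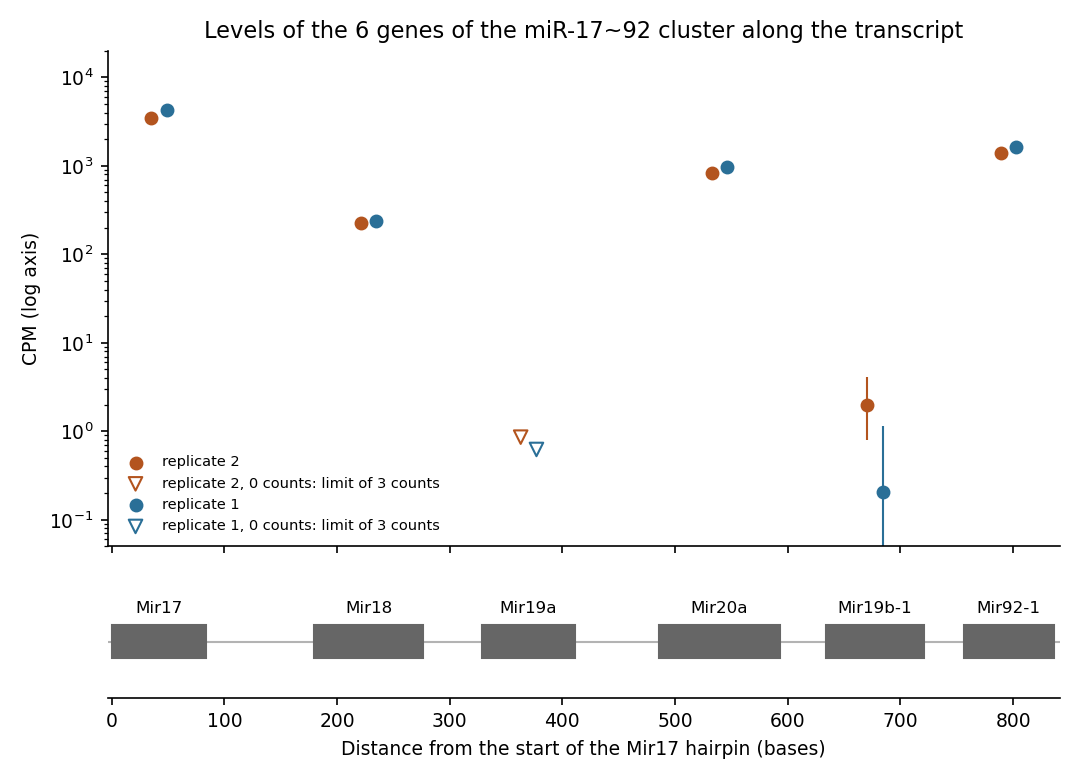
CPM on a log axis for the 6 members in replicate 2 and replicate 1, placed by distance in bases from the start of the Mir17 hairpin, with bars for exact 95% intervals of counting error and open triangles for the limit of 3 counts where the count was 0. Mir17, Mir18, Mir20a and Mir92-1 lie between 224 and 4290 CPM, while Mir19a and Mir19b-1 lie at or below 2.00 CPM.

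Shares of uniquely assigned counts within the cluster varied little between the libraries. Reads that fit Mir92-2 as well as Mir92-1 are not in them. Mir17 made up 58.9% of the cluster's counts in replicate 2 and 59.98% in replicate 1, Mir92-1 23.4% and 23.1%, Mir20a 13.9% and 13.7%, and Mir18 3.78% and 3.31%, in the same order of libraries. The exact 95% intervals of the libraries overlapped for Mir92-1, from 22.8% to 23.9% in replicate 2 and from 22.6% to 23.5% in replicate 1, and for Mir20a, from 13.5% to 14.4% in replicate 2 and from 13.29% to 14.02% in replicate 1. Mir18 had intervals of 3.53% to 4.05% in replicate 2 and 3.13% to 3.51% in replicate 1, which did not overlap.

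Mir17 had 15.6 times the counts of Mir18 in replicate 2 and 18.1 times in replicate 1. It had 4.23 times the counts of Mir20a in replicate 2 and 4.39 times in replicate 1. Mir92-1 had 1.68 times the uniquely assigned counts of Mir20a in replicate 2 and 1.69 times in replicate 1. Whether the library preparation captured the members equally well was not tested. A microRNA read spans its mature arm, so counts do not grow with hairpin length. Divided by hairpin length all the same, mean levels were 4633, 1896, 842 and 240.3 CPM per 100 bases for Mir17, Mir92-1, Mir20a and Mir18, which is the same order.

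Counts on genes of the seed groups were divided between the cluster and genes elsewhere. They are counts per hairpin gene and do not separate its arms. Reads of the other arm, which need not carry the seed, are therefore included. The seed of Mir17 and Mir20a is shared by Mir93 and Mir106b of the miR-106b~25 cluster, by Mir106a and Mir20b of the paralogous cluster on the X chromosome and by Mir6383. These 7 genes summed to 10796 CPM in replicate 2 and 11108 CPM in replicate 1. Mir17 and Mir20a held 40.0% of that in replicate 2 (exact 95% interval 39.5% to 40.5%) and 47.4% in replicate 1 (47.0% to 47.8%), a mean of 43.7% ± 5.25 (SD, n = 2). Mir93, which lies with Mir106b and Mir25 in the replication licensing gene Mcm7, was above Mir17 in both libraries, at 4872 CPM in replicate 2 and 4775 CPM in replicate 1. The ratio of Mir17 to Mir93 was 0.717 in replicate 2 and 0.899 in replicate 1.

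For the seed of Mir18, the cluster held nearly all counted reads. Mir18b, the other gene with this seed, had 3 counts in replicate 2 and 2 in replicate 1, so Mir18 held 99.6% of the group's counts in replicate 2 and 99.8% in replicate 1. For the seed of Mir92-1, Mir92b lay well above the cluster, at 7077 CPM in replicate 2 and 7866 CPM in replicate 1. Mir92-1 held 15.9% of the counts of the 7 genes with this seed in replicate 2 (exact 95% interval 15.5% to 16.3%) and 17.0% in replicate 1 (16.7% to 17.4%). The 4 lesser genes of that group with counts were Mir25, Mir32, Mir92-2 and Mir363, and Mir367 had 0 counts in both libraries. The 3 genes with the miR-19 seed had 7 counts in all in replicate 2 and 1 in replicate 1, every one of them on Mir19b-1. The shares of Mir92-1 and the counts of the miR-19 group are of uniquely assigned reads. The whole guide arm of Mir92-1, and that of Mir19b-1, lies in the run shared with its copy. Reads confined to such a run are not counted. The counts of the miR-19 group are therefore no measure of its level in the tissue.

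**Figure D2:**
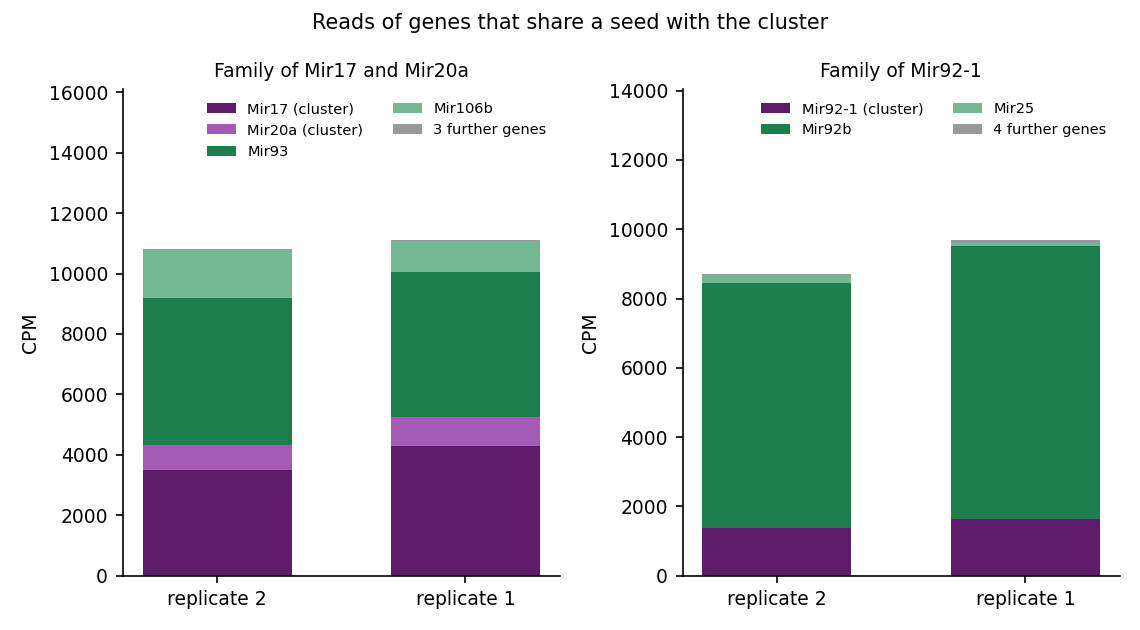
Summed CPM in replicate 2 and replicate 1 for the genes that share the seed of Mir17 and Mir20a (left) and the seed of Mir92-1 (right), stacked by gene, with cluster members in purple. The cluster holds 40.0% of the left-hand group in replicate 2 and 47.4% in replicate 1, and 15.9% and 17.0% of the right-hand group, most of which is Mir92b.

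The paralogous clusters arose from the same ancestral cluster, and most of their genes match a member by position and seed. Not every member has a counterpart in each of them. The 3 genes of miR-106b~25 held 0.664% of gene counts in replicate 2 and 0.591% in replicate 1, a mean of 0.627% ± 0.0517 (SD, n = 2). Replicate 2 was thus below replicate 1 for miR-17~92 and above it for miR-106b~25, with log2 ratios of replicate 2 over replicate 1 of -0.27 (95% interval -0.30 to -0.25) and 0.17 (0.14 to 0.19). As a share of all reads, miR-17~92 was again lower in replicate 2, at 0.205% against 0.279% in replicate 1. On that scale miR-106b~25 was not higher, at 0.22963% in replicate 2 and 0.23002% in replicate 1. The means of these 2 clusters differed by less than the SD of miR-17~92 over the libraries. The X-chromosome cluster of 6 genes, from Mir106a to Mir363, held 0.00463% of gene counts in replicate 2 and 0.00575% in replicate 1.

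Gene by gene, the cluster on the X chromosome was far below the members. Mir17 had 555 times the counts of Mir106a in replicate 2 and 333 times in replicate 1, and their guide arms differ by U10A alone, with the base of miR-17-5p first. Mir20a had 72.2 times the counts of Mir20b in replicate 2 and 105 times in replicate 1. Mir92-1 had 65.4 times the uniquely assigned counts of Mir92-2 in replicate 2 and 54.8 times in replicate 1. Mir19b-2, like Mir19a, had 0 counts in both libraries. The miR-106b~25 cluster has no miR-19 gene. In the plot of the 3 paralogous clusters, Mir17, Mir18, Mir20a and Mir92-1 each lie above their X-chromosome counterpart in both libraries.

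**Figure D3:**
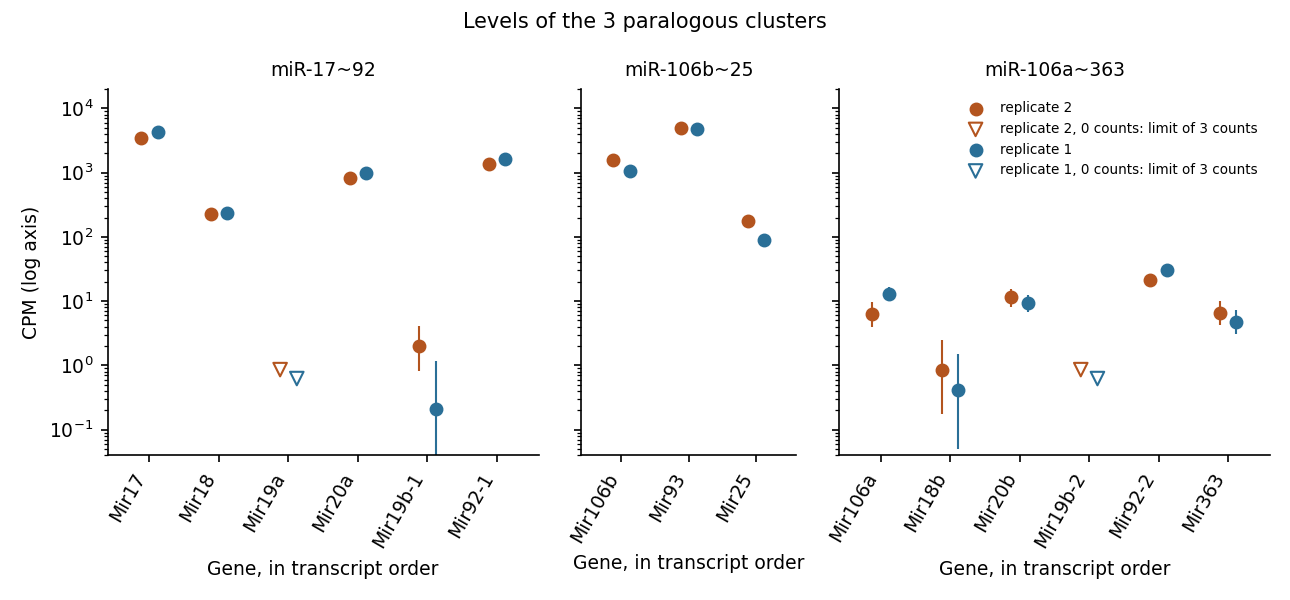
CPM on a log axis in replicate 2 and replicate 1 for every gene of the miR-17~92, miR-106b~25 and X-chromosome clusters, in transcript order, with exact 95% intervals of counting error and open triangles for the limit of 3 counts where the count was 0. No gene of the X-chromosome cluster exceeds 30.1 CPM, while Mir17 of miR-17~92 and Mir93 of miR-106b~25 lie between 3492 and 4872 CPM.

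How far the members differed between the libraries was set against all genes. The 540 genes with at least 10 counts in all were compared by exact binomial tests, two-sided and conditional on library totals, with Benjamini-Hochberg adjustment over them. It compares these libraries, not conditions, and assumes counting error only. Genes are said to differ here where the adjusted p was below 0.05 and the ratio at least 2-fold. Of the 4 members that could be tested, 0 differed, beside 18.7% of all tested genes, 11.5% being higher and 7.22% lower in replicate 2. A set of 4 genes is too small to set against this share or those that follow. A ratio of at least 2-fold, whatever the p, was reached by 0 of the 4 members and 24.1% of tested genes. On the adjusted p alone 3 of the 4 passed, beside 55.7% of tested genes. All 3 were lower in replicate 2, as were 23.3% of tested genes on that rule, with 32.4% higher. Mir19a, with 0 counts, and Mir19b-1, with 8 in all, did not reach the minimum for testing.

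Mir17 had a log2 ratio of replicate 2 over replicate 1 of -0.30 (95% interval -0.33 to -0.26) with an adjusted p of 5.57e-73 in the exact binomial test. Mir92-1 had -0.25 (-0.30 to -0.20), with an adjusted p of 2.22e-21 in that test. Mir20a had -0.24 (-0.31 to -0.18), with an adjusted p of 2.93e-12. Mir18 had -0.08 (-0.21 to 0.05) and did not pass, with an adjusted p of 0.343. It did pass with other library sizes, where the same exact test gave an adjusted p of 0.0438 (TMM) and 0.000501 (DESeq2). The median over the 4 was -0.25, against 0.17 over all tested genes. Relative to that median the members lay lower by 0.25 to 0.47 on the log2 scale, a difference that a change of library size leaves as it is by construction.

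The coefficient of variation over the libraries was 14.5% for Mir17, 12.3% for Mir92-1, 11.9% for Mir20a and 3.94% for Mir18. Its median was 26.1% over tested genes. Those include genes with as few as 10 counts in all, where counting error is larger, so this median is not matched to the members in level. The split of differing genes depended on the scaling, with 61.4% of them higher in replicate 2 by library totals, 53.1% by TMM sizes and 45.5% by DESeq2 size factors. Under each of these scalings 0 of the 4 members reached a 2-fold ratio. Of the 7 tested paralogous genes only Mir106a differed (22 counts in replicate 2 and 62 in replicate 1). Its log2 ratio was -1.01, with an adjusted p of 0.00771 in the exact binomial test. Mir106b and Mir25 were higher in replicate 2, by 0.60 and 0.996 on the log2 scale, and did not reach a 2-fold ratio.

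**Figure D4:**
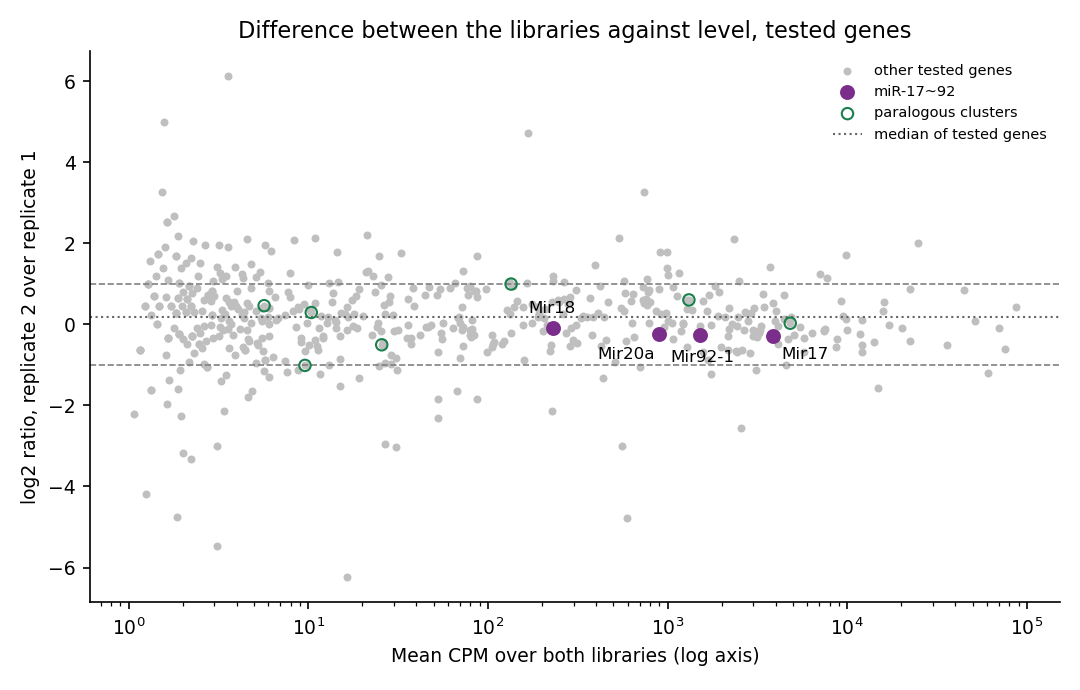
Log2 ratio of replicate 2 over replicate 1 against mean CPM (log axis) for the 540 tested genes, with the 4 tested members in purple and tested paralogous genes as green circles; dashed lines mark a 2-fold ratio and the dotted line the median. The members lie between -0.30 and -0.08, below the median of 0.17 and inside the 2-fold lines.

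The summed level of some lists of microRNAs known from other cell types was not the same in the libraries, and their part in the members' ratios was not tested. The counts of differing genes below stand beside 18.7% over all tested genes, and most lists hold too few genes to set against it. The list for red blood cells (Mir451a, Mir144 and Mir486) summed to 0.00764% of counts in replicate 2 and 0.123% in replicate 1, and 2 of its 3 genes differed. Mir126a of endothelium took 0.930% in replicate 2 and 1.49% in replicate 1 and did not differ by the rule. The choroid plexus and multiciliated list took 0.533% in replicate 2 and 0.258% in replicate 1, and 3 of its 7 genes differed, with 6 tested. The list for myeloid cells and lymphocytes took 0.0906% in replicate 2 and 0.0495% in replicate 1, with 2 of 4 genes differing. Most of its counts were on Mir150, 2712 in replicate 2 and 1793 in replicate 1. Its log2 ratios of replicate 2 over replicate 1 ran from -0.33 for Mir142 to 2.08 for Mir223. The oligodendrocyte list (Mir219a-2 and Mir338) took 0.172% in replicate 2 and 0.0998% in replicate 1, with 0 of 2 differing. Mir219a-1 was not on that list and went the other way, with 68 counts in replicate 2 and 185 in replicate 1. Its log2 ratio of replicate 2 over replicate 1 was -0.97. The neuronal list took 1.85% in replicate 2 and 1.94% in replicate 1, and the Mir9 genes of neural progenitors and astroglia took 0.00961% and 0.0106% in that order, with 0 of 6 and 0 of 3 tested genes differing. These sums hide genes that went opposite ways. Log2 ratios of replicate 2 over replicate 1 ran from -0.69 (Mir138-1) to 0.96 (Mir128-2) for tested neuronal genes. For the Mir9 genes they ran from -0.53 (Mir9-3) to 0.97 (Mir9-1). None of the genes on these lists had 0 counts in both libraries, and these are shares of uniquely assigned reads. Mir9 and Mir124a each have 3 gene copies, and reads that fit several copies are not counted. The Mir9 share is therefore no measure of miR-9 in the tissue. Mir124a-1 had 11 counts in replicate 2 and 13 in replicate 1, and Mir124a-2 and Mir124a-3 were not tested. The neuronal share thus rests on the Mir128, Mir137 and Mir138 genes.

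Genes nearest to each member in level over both libraries, by Euclidean distance of log2(CPM + 1), lay on other chromosomes. Mir17 lay nearest to Mir181d (3413 CPM in replicate 2 and 4808 in replicate 1) and Mir361 (4057 and 4195 CPM). Mir92-1 lay nearest to Mir134 (1360 CPM in replicate 2 and 1606 in replicate 1) and Mir322 (1439 and 1649 CPM). For Mir20a they were Mirlet7c-1 (928.1 CPM in replicate 2 and 978 in replicate 1) and Mir425 (1036 and 972 CPM). For Mir18 they were Mir325 (211 CPM in replicate 2 and 215 in replicate 1) and Mir1188 (217 and 196 CPM). Mir19b-1 had the same counts as Mir466q and Mir7090, and Mir19a was level with 1404 other genes at 0. With 2 libraries, such likeness is a likeness of level and of 1 ratio.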

How the data were processed

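The deposited values were raw read counts per microRNA gene, 1 file per library, made by the authors from the reads of that library on mm10 with the annotation M21, per the submitters' processing notes. The sources used here name no aligner, counter or trimming. Each file holds unstranded counts and counts for each strand, and column 3, with 94.3% of stranded counts in replicate 2 and 94.5% in replicate 1, was taken as sense. Of all reads, 34.6% in replicate 2 and 38.9% in replicate 1 were counted on genes. Reads that fit several places (39.8% and 37.7%) are given as a total and entered neither library sizes nor tests, nor did unmapped reads (19.5% and 17.7%) and reads outside genes (6.09% and 5.74%). All 2202 identifiers matched GENCODE M21. The 15 guide arms and hairpins of the members and paralogous genes matched RefSeq, and each RefSeq hairpin equalled the GENCODE one. Which arm is the guide was taken from background knowledge. Arms were searched in all GENCODE transcripts, not in the genome.

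The members, lists and tests were chosen with earlier results of these data known. Named genes were the members, the paralogous genes, genes with a guide seed of a member and, per member, the 2 nearest genes in level. Log2 ratios had 0.5 counts added, except for summed clusters. With 1 group, no replicated contrast exists, so edgeR and DESeq2 were used only for scaling. The comparison of libraries was tested on simulated counts that varied by counting error only. That simulation does not cover further spread between libraries. Alternatives covered scaling, denominator, strand column, pseudocount, filters, members with copies, and leaving out either replicate. DESeq2 1.42.0 and edgeR 4.0.16 ran in R 4.3.3, and matplotlib 3.10.9, SciPy 1.17.1, pandas 2.3.3 and numpy 2.4.6 in Python 3.11.15.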

Additional observations from a re-analysis of the deposited data

How the results depend on the processing

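As a share of all reads in place of counts on genes, the members took 0.242%, the miR-106b~25 cluster 0.230% and the X-chromosome cluster 0.00192%. Without the members whose guide arm lies in another gene, the remaining 4 took 0.502% of counts on genes. The log2 ratio of the summed cluster kept its sign, at -0.34 with TMM sizes, -0.44 with DESeq2 size factors and -0.44 with all reads as the denominator. With no minimum of counts, 1 member, Mir19b-1 with 8 counts in all, differed between the libraries, as did 111 of 797 genes tested, and on the adjusted p alone 3 members did. Genes that differed numbered 67 of 359 tested with a minimum of 50 counts, against 101 of 540, a lower count from fewer genes tested, and 301 of 540 on the adjusted p alone. Of 70 alternative values, 58 stayed within the limits set for the value reported and 0 reversed. For shares the limit was the SD over the libraries. Leaving out either replicate moves a mean share by less than that SD by construction, and a share cannot reverse. The tally therefore counts values that could not move and is no measure of robustness. Leaving out each replicate gave shares of 0.593% to 0.715% for the members, 0.591% to 0.664% for miR-106b~25 and 0.00463% to 0.00575% for the X-chromosome cluster, and lower bounds of 4069 to 6887 for Mir17 over Mir19a. No paired analysis was possible because the labels give 1 group. With 0 counts on Mir19a and 8 in all on Mir19b-1, counting error is wide for both. Reads that also fit Mir19b-2 are not in the count of Mir19b-1. How far this or depth set these counts was not tested.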

Other observations

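The ratios between libraries of the 4 abundant members lay close together. MicroRNA genes of 1 strand were joined into runs where neighbours lay within 10000 bases, and 12 runs had at least 3 genes with a mean of 100 counts. In the miR-17~92 run, the log2 ratios of replicate 2 over replicate 1 of 4 such genes spanned 0.22, the smallest span of the 12. Mir19a and Mir19b-1 did not enter, and Mir19b-1, with 8 counts in all, had a log2 ratio of 2.78. The run of Mirlet7d on chromosome 13 followed at 0.25, a gap smaller than the counting interval of Mir18 alone (-0.21 to 0.05), and the miR-106b~25 run in Mcm7 spanned 0.97. The median span was 1.21 and the highest was 4.71, in the run of 39 genes from Mir379 on chromosome 12, where 34 genes entered. Spans grow with the number of genes, runs differ in depth, and this comparison was chosen after values were seen and was not tested.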
